A study of Homo sapiens with 18 samples.

Results

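The 34 genes described here encode mTORC1, its partner complex mTORC2, the complexes that carry the nutrient signal to them, and their direct substrates. They were chosen by name and not by a cut on any measured value, but with earlier results of these data known. They are the GATOR1, GATOR2 and KICSTOR complexes, the amino acid sensors SLC38A9 and CASTOR1, and the TSC complex with RHEB. The others are the subunits of both mTOR complexes, a set of substrates, and the kinases PDPK1, AKT1 and AKT2 above them. All 34 were found among the 57820 genes of the deposited table. Of these, 33 had enough counts to be tested, and PRR5 did not.

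Their transcripts were measured by RNA-seq in MDA-MB-231, an established human triple-negative breast cancer line with a mesenchymal appearance. The cells grew in L-15 medium with 15% serum and 2 mM glutamine and were lipofected with siRNA in OPTI-MEM for 72 h. The 3 groups were a control siRNA (siCtrl; genotype label WT) and either of 2 siRNAs against RagC (siRagC1 and siRagC2; genotype label for RagC knock-down), with 6 libraries each. The study lowered RagC to repress mTORC1. All libraries are siRNA-treated cells of 1 line, and the labels name no starved or untreated cells.

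mTORC1 is the kinase complex that lets a cell grow when nutrients and growth factors are at hand. Amino acids act through a chain of lysosomal complexes: GATOR1 switches off the Rag GTPases, GATOR2 holds GATOR1 back, KICSTOR anchors GATOR1 to the lysosome, and active Rag dimers, each with RagC or RagD, bring mTORC1 to the lysosomal surface. There the GTPase RHEB switches the kinase on, unless the TSC complex, the meeting point of growth factor and stress signals, has switched RHEB off. This wiring is known mainly from the proteins and their phosphorylation, neither of which was measured here.

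The libraries held 14.8 M to 71.6 M counts. RRAGC, which encodes RagC, was lower with the RagC siRNAs in 12 of 12 same-numbered comparisons with siCtrl (log2 fold change, mean of both siRNAs, -1.32 ± 0.14 SE; edgeR adjusted p = 0.000142). Such tallies of 12 use each control library with both siRNAs, and same-numbered libraries were not shown to be pairs, so the tallies only describe the values. The line's markers VIM, AXL, CD44, MSN, EGFR and CAV1 stood at 359 CPM or more in every library (CPM, the unit of level here, are counts scaled to the size of the library), while ESR1 and PGR reached at most 0.164 CPM. Of the markers set down as near 0 for this line, the epithelial gene EPCAM was not, at 13.2 to 19.3 CPM. CD3E and ALB, markers of T cells and hepatocytes, were at 0.164 CPM or less, and the leukocyte gene PTPRC reached 0.774 CPM. The library codes fall into a series D1103 (replicates 1 and 2 of each group) and a series D1221 (replicates 3 to 6), and the labels do not say what the series stand for. The labels call the libraries biological replicates without stating separate cultures, and the spread that p-values rest on may be technical.

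None of the tested members passed the threshold, an adjusted p under 0.05 over all 15307 genes tested with edgeR's quasi-likelihood test. With siRagC1, 0 of 33 members were called, against 2.04% of all tested genes, and 4 had an unadjusted p under 0.05 (17.1% of all genes did). With siRagC2, 0 of 33 were called, against 3.23%, and 8 had an unadjusted p under 0.05 (18.5%). For the mean of both siRNAs against siCtrl the count was again 0, against 4.95%, with 9 members at an unadjusted p under 0.05 (20%). Between siRagC1 and siRagC2 edgeR called 0 members, against 0% of all genes, and 2 members had an unadjusted p under 0.05 (7.75%). DESeq2 on the same counts called 3 members lower with siRagC2 (SEH1L, ITFG2 and MAPKAP1), where it called 3.99% of its genes lower. In the mean comparison it called 1 higher (WDR59; 4.7% of genes) and 2 lower (SEH1L and ITFG2; 4.59%). It called no member with siRagC1 (5.75% of genes in either direction) or between the siRNAs (0.224%). limma-voom called ITFG2 lower with siRagC2 (1.94% of genes) and SEH1L and ITFG2 lower in the mean comparison (2.9%), and no member with siRagC1 (3.18%) or between the siRNAs (0%). edgeR with the replicate number as a block called MAPKAP1 lower with siRagC2 (2.78% of genes), and WDR59 higher (4.74%) and SEH1L lower (4.1%) in the mean comparison.

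The median sizes of the changes were below those over all tested genes, and so were the median standard errors. The median absolute log2 fold change over the 33 members was 0.03 with siRagC1, where it was 0.08 over all tested genes. With siRagC2 the medians were 0.05 and 0.08, and in the mean comparison 0.04 and 0.07. The median SE was 0.055 over the members and 0.073 over all genes with siRagC1. It was 0.056 and 0.074 with siRagC2, and 0.048 and 0.064 in the mean comparison. How far the smaller SE accounts for the smaller changes was not tested. The 95% confidence interval of the fold change lay within 1.2-fold of no change for 27 of 33 members with siRagC1 and for 28 with siRagC2. With siRagC1 the exceptions were CASTOR1, DEPTOR, MLST8, RICTOR, PRR5L and RPS6KB1, and with siRagC2 they were CASTOR1, DEPTOR, ITFG2, RICTOR and PRR5L. Between the siRNAs the intervals of 28 of 33 members lay within 1.2-fold, and those of CASTOR1 and DEPTOR also reached past 1.5-fold. Because both comparisons use the same 6 control libraries, their values are given side by side and not as support for each other.

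**Figure D1:**
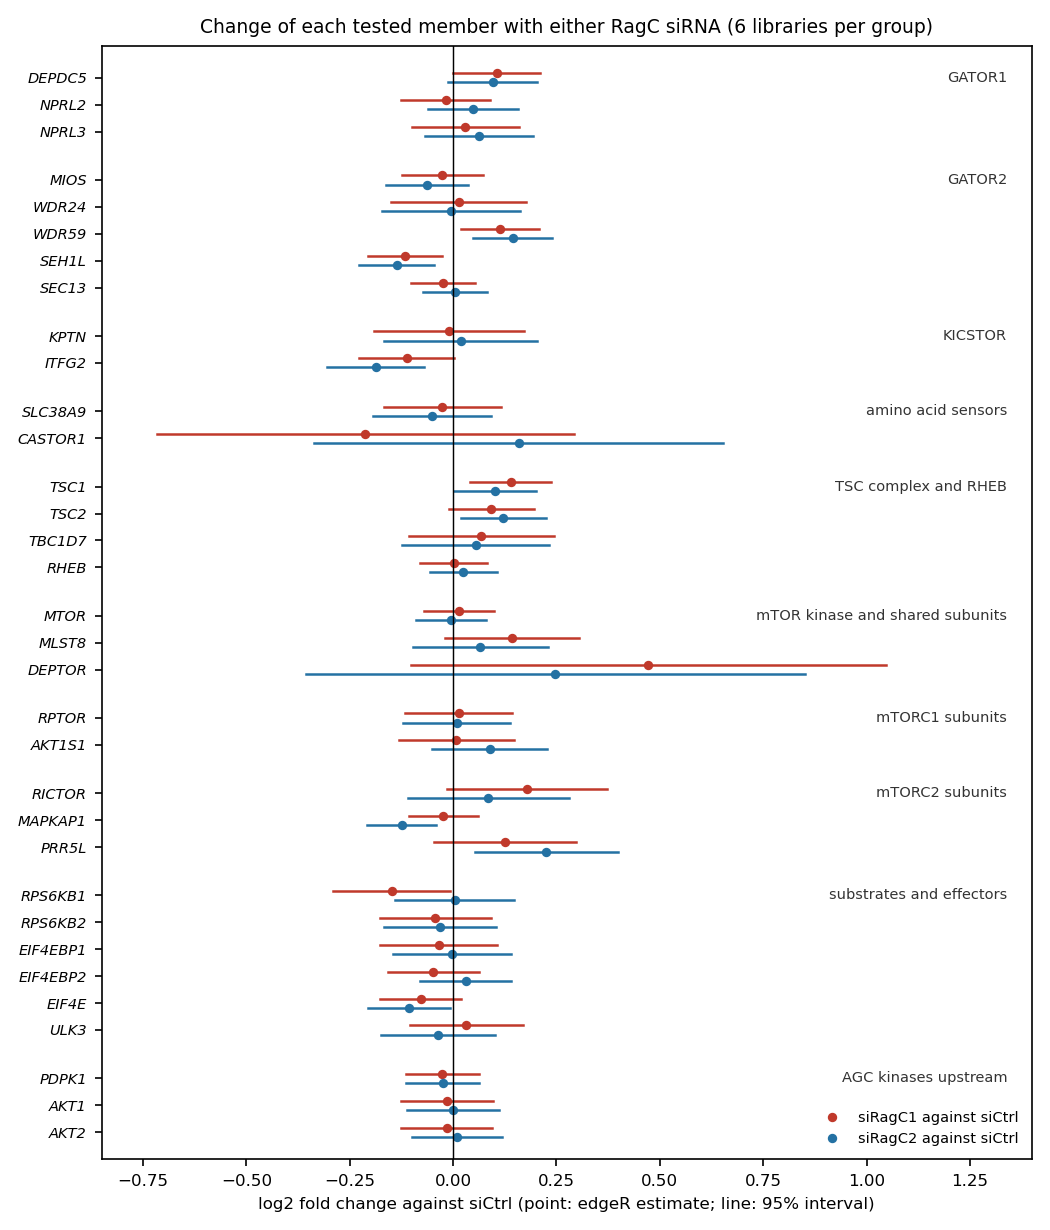
The log2 fold change of each of the 33 tested members against siCtrl (horizontal axis; point, edgeR estimate; line, 95% interval) is drawn for siRagC1 in red and siRagC2 in blue, with members grouped by complex. Nearly all points lie close to 0, and the widest lines belong to CASTOR1 and DEPTOR, the members with the fewest counts among those tested.

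Levels are compared between genes only per length, as CPM per kb of annotated exon in siCtrl cells. RHEB stood highest at 49.9 CPM per kb, followed by EIF4EBP1, the translation repressor that mTORC1 phosphorylates, at 48.2 CPM per kb. MAPKAP1 at 24.7 and SEC13 at 24.1 CPM per kb came next. The kinase gene MTOR, at 10.5 CPM per kb, was close to its partners MLST8 at 10.7 and RPTOR at 10.2 CPM per kb. The GATOR1 subunits were unequal: NPRL3 stood at 8.89, NPRL2 at 6.66 and DEPDC5, which holds the Rag GTPase binding part of GATOR1, at 0.706 CPM per kb. The lowest tested members were CASTOR1 at 0.187 and DEPTOR at 0.150 CPM per kb. These lengths come from all annotated exons of a gene, so a gene with long or rarely used exons reads too low. In GENCODE, 46.0% of the exon length of CASTOR1 is shared with AC004997.1 on the same strand, and 35.7% of that of WDR24 lies opposite Z92544.2, so the counts of both are uncertain.

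**Figure D2:**
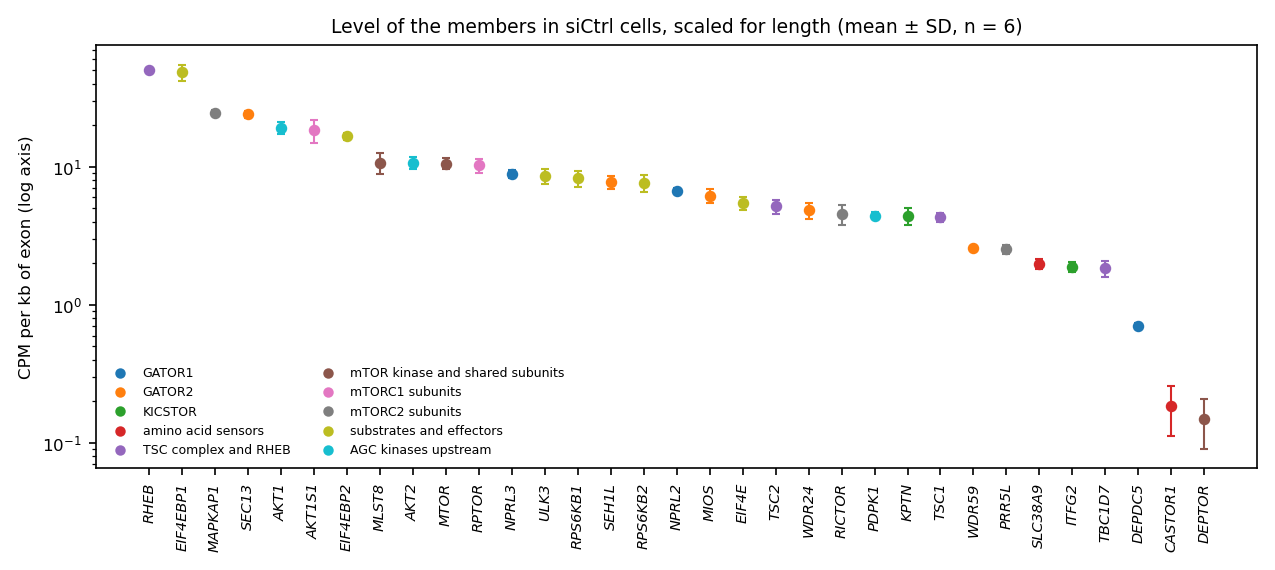
CPM per kb of exon in the 6 siCtrl libraries (mean and SD, logarithmic axis) is drawn for the 33 tested members in descending order and coloured by complex. RHEB and EIF4EBP1 lead at close to 50 CPM per kb, and CASTOR1 and DEPTOR lie apart at the bottom, at 0.187 and 0.150 CPM per kb.

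GATOR1 is the brake on the Rag GTPases. DEPDC5 (ENSG00000100150) ran from 11.6 through a median of 12.2 to 13.3 CPM with siCtrl, from 12.2 through 12.9 to 14.2 with siRagC1, and from 11.4 through 13.3 to 13.99 with siRagC2. The groups overlapped, although the RagC siRNA library was the higher one in 10 of 12 same-numbered comparisons. Its log2 fold change in the mean comparison was 0.10 ± 0.04 (SE; edgeR adjusted p = 0.206). The other subunits NPRL2 and NPRL3 had 0.02 ± 0.05 and 0.05 ± 0.05 in that comparison.

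GATOR2 opposes GATOR1 and receives the signals of several sensors. It held the member with the lowest adjusted p for the mean of both siRNAs, SEH1L, and the only member whose groups did not overlap in CPM, WDR59, with estimates of opposite sign. SEH1L (ENSG00000085415), a propeller protein that also sits in the nuclear pore, ran from 67.2 through 83.9 to 92.0 CPM with siCtrl, from 62.2 through 77.4 to 86.9 with siRagC1, and from 59.1 through 77.3 to 83.5 with siRagC2. All 3 groups overlapped widely, since replicates 1 and 2 lay far below the others in each group, yet the RagC siRNA library was the lower one in 11 of 12 same-numbered comparisons. The log2 fold change was -0.12 ± 0.04 with siRagC1 (adjusted p = 0.166) and -0.14 ± 0.04 with siRagC2 (adjusted p = 0.0895). For their mean it was -0.13 ± 0.04 (adjusted p = 0.0553). With the replicate number as a block this last value passed the threshold (adjusted p = 0.0381), and it also passed without siRagC2 replicate 6 (adjusted p = 0.0446).

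WDR59 (ENSG00000103091), a scaffold subunit of GATOR2, ran from 23.8 through 24.2 to 25.3 CPM with siCtrl, from 23.6 through 26.9 to 27.4 with siRagC1, and from 25.7 through 27.1 to 28.1 with siRagC2. The siRagC2 libraries all lay above all siCtrl libraries, as they did for 0.601% of all tested genes, and no member lay entirely below (0.542% of all genes did). No member's ranges were apart with siRagC1 (0.516% of all genes higher and 0.314% lower), with both siRNAs against siCtrl (0.196% and 0.098%) or between the siRNAs (0.137% and 0.0915%). With siRagC1, replicate 4, at 23.6 CPM, lay below every control, and the other 5 libraries lay above every control. The log2 fold change was 0.11 ± 0.05 with siRagC1 (adjusted p = 0.195), 0.14 ± 0.05 with siRagC2 (adjusted p = 0.0857) and 0.13 ± 0.04 for the mean (adjusted p = 0.0630). The mean passed with the replicate number as a block (adjusted p = 0.0457). Left without siRagC1 replicate 4, the mean comparison called WDR59 (adjusted p = 0.0337) and SEH1L (adjusted p = 0.0309). The remaining GATOR2 subunits MIOS, WDR24 and SEC13 had mean changes of -0.04 ± 0.04, 0.00 ± 0.07 and -0.01 ± 0.03.

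KICSTOR was represented by KPTN and ITFG2. ITFG2 (ENSG00000111203) was the member with the lowest adjusted p with siRagC2. It ran from 10.5 through 11.5 to 13.3 CPM with siCtrl, from 10.2 through 10.6 to 11.8 with siRagC1, and from 8.70 through 10.2 to 11.9 with siRagC2. The groups overlapped, but ITFG2 was lower in 12 of 12 same-numbered comparisons, a count that no other member reached in either direction. The log2 fold change was -0.11 ± 0.06 with siRagC1 (adjusted p = 0.306), -0.19 ± 0.06 with siRagC2 (adjusted p = 0.0703) and -0.15 ± 0.05 for the mean (adjusted p = 0.0764). In GENCODE, 12.5% of the exon length of ITFG2 lies opposite exons of FOXM1, a cell cycle factor with 136476 counts in all against 6220 for ITFG2, and the sources used here do not say whether counting used strand. A share of FOXM1 reads in the ITFG2 counts was not tested. KPTN had a mean change of 0.00 ± 0.08.

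Of the amino acid sensors, SLC38A9, which senses arginine inside the lysosome, stood at 17.5 ± 1.57 CPM with siCtrl, 17.2 ± 1.15 with siRagC1 and 16.8 ± 1.497 with siRagC2 (SD, n = 6 each). CASTOR1, the cytosolic arginine sensor that binds GATOR2, had 5 to 45 counts per library. At that depth its fold with siRagC1 was 0.863 with a 95% interval from 0.609 to 1.22, so a change of that size was not detectable.

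The TSC complex shuts RHEB off, and its genes TSC1, TSC2 and TBC1D7 had estimates above 0 with both siRNAs. TSC1 (ENSG00000165699) ran from 69.3 through 75.1 to 85.5 CPM with siCtrl, from 81.0 through 83.5 to 87.0 with siRagC1, and from 75.9 through 81.6 to 86.7 with siRagC2. A single control, replicate 6 at 85.5 CPM, lay inside the siRagC1 range, and the other 5 lay below all siRagC1 libraries. The log2 fold change was 0.14 ± 0.05 with siRagC1 (adjusted p = 0.119), 0.10 ± 0.05 with siRagC2 (adjusted p = 0.253) and 0.12 ± 0.04 for the mean (adjusted p = 0.0912). Without siCtrl replicate 6, TSC1 passed with siRagC1 (0.18 ± 0.04, adjusted p = 0.0252) and in the mean comparison (0.16 ± 0.04, adjusted p = 0.0160). Fitted per code series, its mean change was 0.24 ± 0.07 in D1103 and 0.06 ± 0.05 in D1221, and the difference between the series had an adjusted p of 0.939 (unadjusted 0.0386).

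TSC2 (ENSG00000103197), the catalytic partner of TSC1, ran from 81.0 through 102 to 116 CPM with siCtrl, from 94.7 through 106 to 123 with siRagC1, and from 99.6 through 107 to 123 with siRagC2. For TSC2 siCtrl replicate 6 was the lowest control, where for TSC1 it was the highest, and the groups overlapped. The mean log2 fold change was 0.11 ± 0.04 (adjusted p = 0.155), with the RagC siRNA library higher in 11 of 12 same-numbered comparisons. TBC1D7 had 0.06 ± 0.07, and RHEB, the target of the complex, 0.01 ± 0.03, with a fold of 1.01 (95% interval 0.961 to 1.06).

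The kinase gene itself was close to level. MTOR stood at 128 ± 11.9 CPM with siCtrl, 129 ± 12.9 with siRagC1 and 127 ± 6.04 with siRagC2 (SD, n = 6 each), and its fold for the mean of both siRNAs was 1.00 with a 95% interval from 0.954 to 1.06. MLST8, the subunit found in both mTOR complexes, had a log2 fold change of 0.10 ± 0.07 (adjusted p = 0.416). DEPTOR, an inhibitor bound by both complexes, had only 4 to 38 counts per library and a change of 0.36 ± 0.25 (adjusted p = 0.455). The subunits particular to mTORC1 were RPTOR, the substrate-binding scaffold, with 0.01 ± 0.05, and AKT1S1, the inhibitor PRAS40, with 0.05 ± 0.06.

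mTORC2 faces growth factor signals and phosphorylates AKT. Of the paralogous subunits PRR5 and PRR5L, MDA-MB-231 cells expressed the second: PRR5 had 0 to 4 counts per library in all 3 groups and so was not tested. PRR5L (ENSG00000135362) ran from 15.0 through 16.8 to 18.2 CPM with siCtrl, from 15.995 through 17.9 to 21.1 with siRagC1, and from 15.3 through 19.9 to 22.6 with siRagC2. The highest siRagC2 libraries exceeded every control and the lowest did not. Its log2 fold change was 0.13 ± 0.08 with siRagC1 (adjusted p = 0.459), 0.23 ± 0.08 with siRagC2 (adjusted p = 0.135) and 0.18 ± 0.07 for the mean (adjusted p = 0.169).

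MAPKAP1 (ENSG00000119487), the subunit SIN1, had a larger estimate with siRagC2 than with siRagC1. It ran from 158 through 168 to 173 CPM with siCtrl, from 153 through 163 to 174 with siRagC1, and from 142 through 154 to 160.4 with siRagC2. Only the top of the siRagC2 range reached into the controls, and siRagC2 was the lower library in 6 of 6 same-numbered comparisons. The log2 fold change was -0.02 ± 0.04 with siRagC1 (adjusted p = 0.814), -0.12 ± 0.04 with siRagC2 (adjusted p = 0.0924) and -0.07 ± 0.03 for the mean (adjusted p = 0.237). With the replicate number as a block the siRagC2 value passed (adjusted p = 0.0444). It also passed without siCtrl replicate 6 (adjusted p = 0.0496). Tested directly, siRagC1 against siRagC2 gave 0.10 ± 0.04 (adjusted p = 0.561), so the siRNAs were not shown to differ.

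RICTOR (ENSG00000164327), the scaffold of mTORC2, ran from 49.4 through 61.1 to 77.8 CPM with siCtrl, from 56.8 through 65.2 to 94.3 with siRagC1, and from 60.5 through 63.6 to 71.4 with siRagC2. The top siRagC1 value came from replicate 4, and the next library of its group stood at 74.0 CPM. In the mean comparison the log2 fold change was 0.13 ± 0.08 (adjusted p = 0.384), and 0.05 when all replicates numbered 4 were left out. Fitted on the D1103 libraries alone, 2 per group, RICTOR, PRR5L and TSC1 passed in the mean comparison at 0.28 ± 0.07, 0.33 ± 0.09 and 0.24 ± 0.06 (adjusted p = 0.0177, 0.0341 and 0.0178), where 3.78% of all genes were called higher, and no member passed in D1221.

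**Figure D3:**
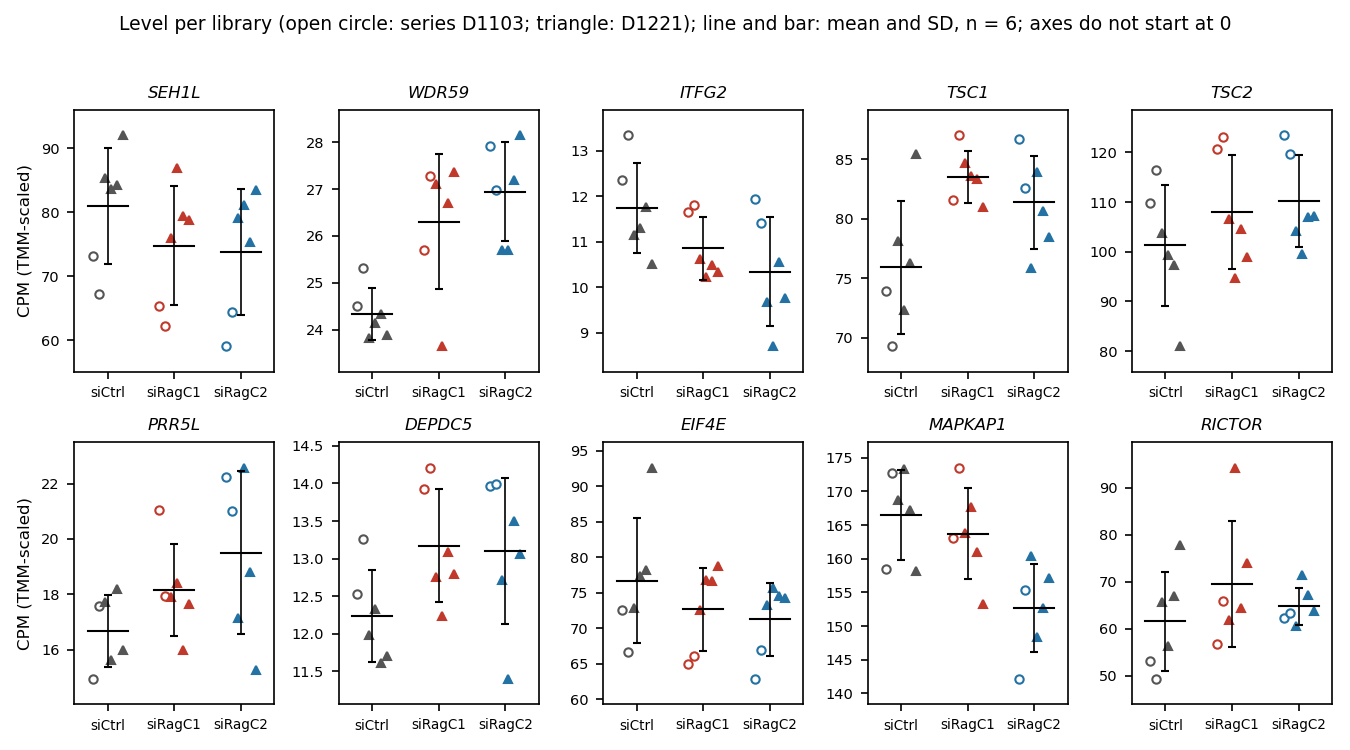
Each panel shows the CPM of 1 of the 10 members with the lowest p in the mean comparison, in the 6 libraries of siCtrl, siRagC1 and siRagC2 (open circles, code series D1103; triangles, D1221; line and bar, mean and SD); the vertical axes do not start at 0. WDR59 is the 1 panel in which siCtrl and siRagC2 do not overlap. In SEH1L, DEPDC5, TSC2, ITFG2 and EIF4E the circles lie apart from most triangles within each group.

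Among the substrates, RPS6KB1, one of the S6 kinases that drive ribosomal protein S6 phosphorylation, stood at 63.5 ± 8.30 CPM with siCtrl, 57.2 ± 7.97 with siRagC1 and 63.3 ± 4.23 with siRagC2 (SD, n = 6 each). Its log2 fold change was -0.15 ± 0.07 with siRagC1 (adjusted p = 0.271) and 0.00 ± 0.07 with siRagC2 (adjusted p = 0.987). Between the siRNAs it was -0.15 ± 0.07 (adjusted p = 0.614). Of 37 other settings, only 2 called RPS6KB1 there. These were the D1103 libraries alone, 2 per group, at -0.31 (adjusted p = 0.0419), and the fit without the libraries numbered 6, at -0.23 (adjusted p = 0.0119). Its paralog RPS6KB2 had a mean change of -0.04 ± 0.06.

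EIF4E (ENSG00000151247), the cap-binding protein that starts translation, ran from 66.6 through 75.1 to 92.6 CPM with siCtrl, from 64.9 through 74.6 to 78.7 with siRagC1, and from 62.9 through 73.8 to 75.7 with siRagC2. Its highest control was replicate 6, above every other library, and the groups overlapped. The mean log2 fold change was -0.09 ± 0.04 (adjusted p = 0.209). Its repressors EIF4EBP1 and EIF4EBP2 had -0.02 ± 0.06 and -0.01 ± 0.05, and ULK3, a relative of the autophagy kinase ULK1, 0.00 ± 0.06. The kinases PDPK1, AKT1 and AKT2, which relay growth factor signals to the TSC complex, had mean changes of -0.03 ± 0.04, -0.01 ± 0.05 and 0.00 ± 0.05.

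The level of many members differed more between the code series than between the siRNA groups. Over all 3 groups, 7 of the 33 were higher in D1221 and 8 lower (edgeR, adjusted p under 0.05), against 23.8% and 25% of all tested genes (48.8% in either direction), and the difference between series was larger than the mean siRNA change in 27 of 33, as it was in 72.4% of all genes. The median absolute log2 difference between series was 0.12 over the members and 0.16 over all genes. SEH1L ran from 59.1 through 64.9 to 73.1 CPM in the 6 libraries of D1103 and from 75.4 through 82.3 to 92.0 in the 12 of D1221, which do not overlap (log2 difference 0.33 ± 0.04, adjusted p = 1.15e-06). MTOR ran from 109 through 116 to 122 and from 125 through 135 to 141 CPM, again without overlap (0.21 ± 0.04, adjusted p = 7.51e-05). AKT1S1 went the other way, from 117 through 124 to 133 CPM in D1103 and from 74.6 through 100.4 to 112 in D1221 (-0.35 ± 0.06, adjusted p = 5.89e-05). The others higher in D1221 were MIOS, RHEB, RICTOR, RPS6KB1 and EIF4E, and the others lower were DEPDC5, ITFG2, TSC2, MLST8, RPS6KB2, ULK3 and PDPK1.

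The members higher in D1221 had transcripts of lower GC content, with a median of 43.4%, and the members lower there a median of 59.5%. Over the 33 members, GC content and the series difference had a Pearson correlation of -0.785 (Spearman -0.793), and over 14910 tested genes one of -0.454. These describe genes measured in the same 18 libraries and carry no p. Per library, the correlation over all genes of the deviation from the gene's mean with GC content ran from 0.474 in siCtrl replicate 2 to -0.637 in siCtrl replicate 6. With that correlation as a further term, the members called against siCtrl in the mean comparison were 3 higher (WDR59, TSC1 and RICTOR), against 5.79% of all genes, and 2 lower (SEH1L and ITFG2), against 4.81%, in a fit chosen after seeing the data. With the same term, 1 member was higher in D1221 (SEH1L; 6.37% of all genes) and 1 lower (EIF4EBP2; 4.86%). Without replicate 1 of each group the series counts were 4 higher (17.8% of all genes) and 5 lower (17.4%), with fewer D1103 libraries in the fit.

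**Figure D4:**
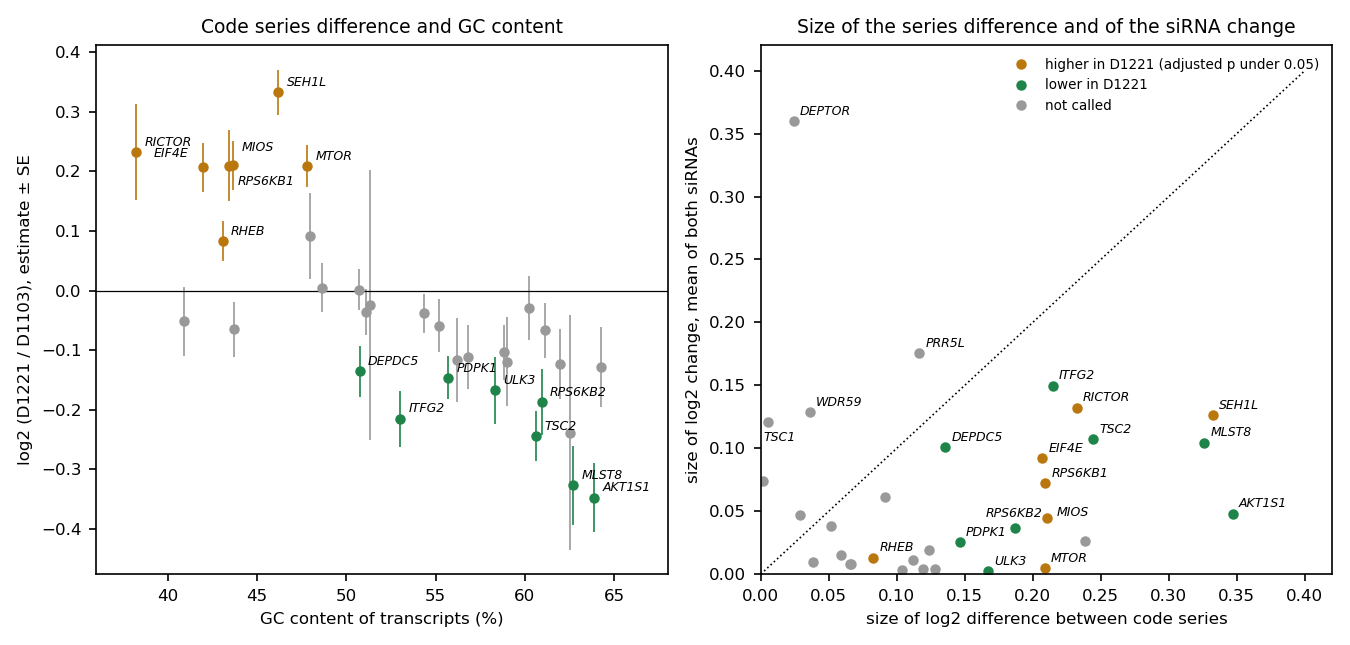
Left, the log2 difference between code series (D1221 over D1103, estimate and SE) is plotted against transcript GC content in percent for the 33 tested members, and right, the size of the mean siRNA change (vertical) is plotted against the size of that difference (horizontal), with a dotted line of equality. On the left the points run from above 0 at low GC content to below 0 at high GC content (Pearson correlation -0.785), and on the right 27 of 33 points lie below the line, where the series difference is the larger.

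The effect of the siRNAs on the members was not shown to depend on the series: the test of that difference called 0 of all 15307 genes in either siRNA comparison or their mean. At an unadjusted p under 0.05 it held 2.03% of all genes for siRagC1, 6.66% for siRagC2 and 4.22% for the mean. TSC1 was such a gene for the mean, as given above. D1103 held only 2 libraries per group, so a difference between the series could be missed. TSC1, RICTOR and PRR5L passed in D1103 alone and not in D1221 alone.

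In the rest of the pathway, 64 further tested genes other than RRAGC (Rag and Ragulator, folliculin complex, other sensors, stress and growth factor inputs, kinase assembly and other substrates) held calls in each comparison with siCtrl. With siRagC1, 2 were higher and 1 lower, where 1.41% and 0.627% of all genes were. With siRagC2, 3 were higher (1.87% of all genes) and 1 lower (1.36%). In the mean comparison 4 were higher (2.72%) and 2 lower (2.23%). FNIP1 and FLCN, which form the folliculin complex, the GTPase activating partner of RagC and RagD, rose with each siRNA, by 0.29 ± 0.06 and 0.23 ± 0.05 in the mean comparison on the log2 scale (adjusted p = 0.00690 and 0.00879). FNIP1 went from 42.7 through 49.7 to 55.8 CPM with siCtrl to between 58.8 and 70.4 with siRagC1, without overlap, and to between 53.0 and 64.7 with siRagC2.

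PDCD4, a translation inhibitor that S6 kinase marks for degradation, ran from 42.002 through 46.8 to 50.4 CPM with siCtrl, from 48.7 through 52.3 to 56.5 with siRagC1, and from 51.4 through 53.7 to 62.6 with siRagC2. The siRagC2 libraries lay above all controls, and PDCD4 rose in the mean comparison by 0.24 ± 0.05 (adjusted p = 0.0131) and was higher in 12 of 12 same-numbered comparisons. RRAGB, which encodes a Rag GTPase that pairs with RagC, rose in the mean comparison by 0.19 ± 0.05 (adjusted p = 0.0339). SAR1B, a coat GTPase reported to sense leucine, fell by 0.15 ± 0.04 there (adjusted p = 0.0292), in 11 of 12 same-numbered comparisons. MITF fell in the mean comparison (adjusted p = 0.0183), and SESN1, a stress-induced sestrin, fell with siRagC2 (adjusted p = 0.0259).

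Promoters were read because of TFEB, TFE3 and MITF, the factors that mTORC1 keeps from the nucleus. They bind the E-box CACGTG and the extended lysosomal element TCACGTGA, which contains it. Windows of 30 bases around matches are shown (every match in a member, and 1 each for RRAGB and FNIP1), 5′ to 3′ on the gene's strand with the matched letters in capitals, from the RefSeq promoters (GRCh38.p14; 250 bases before to 50 after a start) that 29 of the 34 members have. The members with a match come first, and RRAGB and FNIP1 follow as genes that rose and hold a match. For FLCN and PDCD4, which also rose, no match was listed. Other pathway genes that were not called in the mean comparison hold matches too, such as EIF4B and EIF4G1 with TCACGTGA. Whether the motif goes with a rise was not tested.
TSC2, chr16:2047859-2047888, plus strand: atgcggccccgTCACGTGAtgcaaggatcg
NPRL3, chr16:138631-138660, minus strand: cccggagcgtggCACGTGggttggtaactg
EIF4E, chr4:98929341-98929370, minus strand: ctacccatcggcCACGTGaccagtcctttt
EIF4E, chr4:98929188-98929217, minus strand: ggacatatccgtCACGTGgccagaagctgg
ULK3, chr15:74843311-74843340, minus strand: cctccgtatcccCACGTGggccctgcagga
PRR5, chr22:44701970-44701999, plus strand: gtttcctgtgggCACGTGgggccctcggaa
RRAGB, chrX:55717712-55717741, plus strand: ggtagcggcagTCACGTGAcagactccggg
FNIP1, chr5:131797094-131797123, minus strand: tccgcgcgccgcCACGTGatgcggcccccc

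Both motifs read the same on either strand, and every TCACGTGA holds a CACGTG. The shorter motif was in the promoters of 5 members, 4 of them among the 28 tested members with a promoter (14.3%), against 12.3% of 11013 tested genes and 7.26% of all 35116 promoters in the table. TSC2 was the only member with TCACGTGA, 114 bases before its start, a motif in 2.24% of tested genes and 0.980% of all promoters. The tested members with CACGTG had mean log2 fold changes of 0.11 ± 0.04 (TSC2), 0.05 ± 0.05 (NPRL3), -0.09 ± 0.04 (EIF4E) and 0.00 ± 0.06 (ULK3), on both sides of 0. RRAGB holds 3 CACGTG matches, 1 of them within TCACGTGA, and FNIP1 holds 2. A match describes the letters of a promoter and is not a measured binding site.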

How the data were processed

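The authors deposited raw read counts per gene in 1 table for 18 libraries. Per the submitters' processing notes, cutadapt 0.6.2, STAR 2.7.6a and the build GRCh37/hg19 were used. The counting tool, strand setting and annotation release were not given in the sources used here. Groups and replicate numbers came from the labels. Counts were tested in R 4.3.3 with edgeR 4.0.16 (TMM; filterByExpr by group; robust quasi-likelihood fit with terms for code series and group), adjusted by Benjamini-Hochberg over 15307 genes. The procedure was tested on simulated data, which did not model the GC deviations of single libraries. How well changes as small as those of the members were recovered is not given here. The members, the lists and the comparison of code series were chosen with earlier results of these data known. Members with the 10 lowest p in the mean comparison are given library by library, and other pathway genes are named where called.

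Alternatives used DESeq2 1.42.0, limma-voom (limma 3.58.1), other scalings, filters and thresholds, single series, and left-out libraries. Residuals of same-numbered libraries correlated at 0.116 to 0.492 between siCtrl and siRagC2, 0.221 to 0.582 between the siRNAs and 0.0765 to 0.610 between siCtrl and siRagC1. After the code series was removed the range was -0.144 to 0.302, with negative values in each comparison of groups. The labels do not state pairs, so pairing by number beyond the code series was not established. The main fit therefore rests on the code series and did not take the numbers as pairs. Only the alternative fits with the replicate block did. No library duplicated another: counts of replicates differed by 2.81 to 81.7 times the sampling variance. Exon lengths and overlaps came from GENCODE on GRCh38, which is not the authors' build, so gene coordinates are not given.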

Additional observations from a re-analysis of the deposited data

Results flagged for a closer look

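Among 99 sets of 6 libraries (33 members in 3 groups), 8 held a highest or lowest library whose gap to the next one, as a share of the whole range, exceeded Dixon's 95% limit for 6 values, which chance exceeds in about 1 in 20 sets. Replicate 6 of siCtrl supplied 5 of them. It was the lowest control for NPRL3 of GATOR1 (51.8 CPM), for WDR24 of GATOR2 (13.1 CPM), for KPTN of KICSTOR (6.99 CPM) and for the kinase PDPK1 (42.6 CPM), and the highest for the translation repressor EIF4EBP2 (134 CPM). The same library had the most negative correlation of its deviations with GC content (-0.637), whose part in these values was not tested. The mTORC1 scaffold RPTOR was lowest in siRagC1 replicate 6, at 94.95 CPM. SEC13 was lowest in siRagC2 replicate 6, at 125 CPM. The S6 kinase gene RPS6KB1 was highest in siRagC2 replicate 4, at 71.4 CPM.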

How the results depend on the processing

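Of 310 counts of members called between siRNA groups, all 0 as reported, 272 were also 0 under other settings and 38 were not. At an adjusted p under 0.1, 1 member was higher and 3 lower with siRagC2, and 2 higher and 2 lower in the mean comparison. A filter of 5 CPM in 6 libraries gave 1 higher in the mean comparison. DESeq2 gave 3 lower with siRagC2, and 1 higher and 2 lower in the mean comparison; limma-voom gave 1 and 2 lower. With the replicate block, for the pairing by number, 1 member was lower with siRagC2 (MAPKAP1), and 1 higher (WDR59) and 1 lower (SEH1L) in the mean comparison; no other member's call changed. In D1103 alone, 3 were higher with siRagC2 and in the mean comparison, and 1 was lower between the siRNAs. Leaving out single libraries or replicate numbers gave 0 to 1 members per comparison and direction, called without siCtrl replicate 6 (TSC1, MAPKAP1), siRagC1 replicate 4 (WDR59, SEH1L), siRagC2 replicate 6 (SEH1L) or replicate 6 of all groups (TSC1, MAPKAP1, RPS6KB1). Chosen after seeing the data, the GC covariate gave 2 higher with siRagC1, 1 higher and 2 lower with siRagC2, and 3 and 2 in the mean comparison. Together with the replicate block it gave 2 and 1, 3 and 3, and 4 and 3. The GC covariate alone called 5.79% of all genes higher and 4.81% lower in the mean comparison. The main fit called 2.72% and 2.23% there. Counts for which no share of all genes is given, here or above, are not read as results about the members. Between the code series, left-out libraries gave 4 to 7 higher and 5 to 9 lower, and the GC covariate 1 and 1. Of 1100 fold changes of the 10 members given by library, 2 reversed, neither called: MAPKAP1 with siRagC1 was 0.0234 in D1103 alone and RICTOR with siRagC2 was -0.0221 in D1221 alone. Over all 33 members, 19 mean estimates took the other sign in at least 1 setting: DEPTOR (-0.03 in D1221 alone), CASTOR1, and others of at most 0.05 in size. RLE and upper-quartile factors, no filter, no series term, fits of the compared groups alone, D1221 alone and an adjusted p under 0.01 left the siRNA counts at 0. Other scalings and filters moved the median of all genes by at most 0.03. The causes of these moves were not tested. Depth limits CASTOR1, DEPTOR and PRR5.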
